A study of Arabidopsis thaliana with 16 samples.

Results

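The ein2 mutant was set against Col-0 in air, before any added hormone, to describe which ENAP1 sites are found when EIN2 is not functional. The members are the 8 air samples of the 16 in the study, namely 2 ChIP and 2 input samples of each line. Per the labels they gave 1 peak set for each line, with 7852 regions in Col-0 air and 3252 in ein2 air, out of 20937 regions in the 4 peak sets of the study. Both lines are Arabidopsis thaliana seedlings that grew in darkness for 3 days at 24 °C and then stood for 4 hours in hydrocarbon-free air. Col-0 is the wild-type accession, and ein2 is a mutant in EIN2 whose allele the labels do not give. Chromatin was precipitated with an antibody to green fluorescent protein in both lines, and the inputs had no antibody. The other 8 samples are the same lines after 4 hours in 10 ppm ethylene, and they are used here as a further look at the same sites.

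EIN2 is a membrane protein that ethylene receptors hold inactive in air through the kinase CTR1. When ethylene is bound, part of EIN2 moves to the nucleus, where the EIN3 family of transcription factors acts. ENAP1 binds the nuclear part of EIN2 and has been linked to histone acetylation in ethylene responses.

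Several limits hold for all values. Each line has 1 peak set for both replicates, so no replicate spread and no test between the lines can be given, and intervals are Wilson 95% intervals that cover counting error only. No labelled sample is a precipitation from plants lacking the tag, and whole seedlings mix all cell types, so that fewer cells and less binding per cell cannot be told apart. The lowest −log10 q in the deposited sets was 13.4 in Col-0 air and 10.9 in ein2 air, library depth is unknown, and a site called missing is one at which the ein2 set lists no region. The median −log10 p, a measure of peak strength that moves with depth, was 30.4 in Col-0 air and 23 in ein2 air. The median width was 323 bp and 290 bp.

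At the EIN2 gene itself (AT5G03280), Col-0 air had 3 regions and ein2 air had 2. The widest Col-0 region, chr5:791040-792596 inside the gene, spanned 1557 bp with a −log10 p of 37.8, and no ein2 region overlapped it. The next region, also inside the gene, lay at chr5:792694-793073 with a −log10 p of 34 in Col-0 and at chr5:792739-793052 with 13.5 in ein2. The strongest, just outside EIN2 and in the annotated non-coding RNA gene AT5G03285, lay at chr5:793265-794135 with a −log10 p of 126.9 in Col-0 and at chr5:793289-793881 with 96.0 in ein2. The site outside the gene was therefore among the strongest of both sets, while within the gene the 1557 bp region had no ein2 counterpart. At ENAP1 (AT3G11100), the −log10 p was 117.4 in Col-0 air and 52.1 in ein2 air, with summits at 3477448 and 3477451 of chromosome 3.

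A Col-0 air region is called kept when an ein2 air region overlaps it by 1 bp or more, and missing otherwise. Of the 7852 Col-0 regions 3186 were kept (40.6%) and 4666 were missing (59.4%), and 53 of the 3252 ein2 regions (1.63%) had no Col-0 counterpart. The choice of 1 bp mattered little, since the smallest overlap was 101 bp and the median 280 bp. Among the missing regions 12 had an ein2 region within 100 bp without overlap, the nearest at 42 bp, and 395 (8.47%) had one within 1000 bp.

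Sites kept in ein2 were the strong ones in Col-0. When the Col-0 regions were put in 5 equal classes of −log10 p, from the weakest (class 1) to the strongest (class 5), the kept share was 4.58%, 10.8%, 27.4%, 63.4% and 96.7%. The median −log10 p was 57.0 for kept and 22.6 for missing regions, and the median fold enrichment over background, the authors' own ratio, was 5.55 and 3.87. The kept share was nearly even along the genome, from 39.7% on chromosome 3 to 41.7% on chromosome 2.

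Kept sites lay inside genes more often than missing ones. Of the kept regions, 79.0% had their summit inside a protein-coding gene (interval 77.6 to 80.4), and of the missing ones 64.3% (62.9 to 65.7). A summit within 1000 bp of a gene was found for 17% and 27.7%, and one farther away for 3.95% and 7.95%. Read by position, 48.0% of the sites inside a gene and under 100 bp from its edge were kept, 46.4% of those from 100 to under 300 bp inside, 41.2% of those from 300 to under 1000 bp inside and 34.9% of those 1000 bp or more inside. Outside genes the kept share was 30.4% up to 300 bp, 27.8% from there to 1000 bp and 25.4% beyond 1000 bp. The step at the gene edge was larger than the steps within either side. Genes were given without strand, so gene starts and ends are pooled.

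Strength and position moved together. Sites inside genes had a median −log10 p of 33.7, sites within 1000 bp 24.6 and sites farther away 22.4, whereas their median folds were 4.36, 4.27 and 4.49. Among sites of like −log10 p the position difference was small: in class 4 the kept share was 64.5% inside genes (61.8 to 67.1), 60.5% within 1000 bp (54.5 to 66.2) and 55.2% farther away (43.4 to 66.5). In class 5 it was 97.2%, 94.7% and 96.2%. Among sites of like fold it was larger, with 64.6% (61.7 to 67.3), 37.5% (32.6 to 42.7) and 17.5% (11.7 to 25.6) in the fourth of 5 fold classes. The part that signal strength has in the position difference was not tested.

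**Figure D1:**
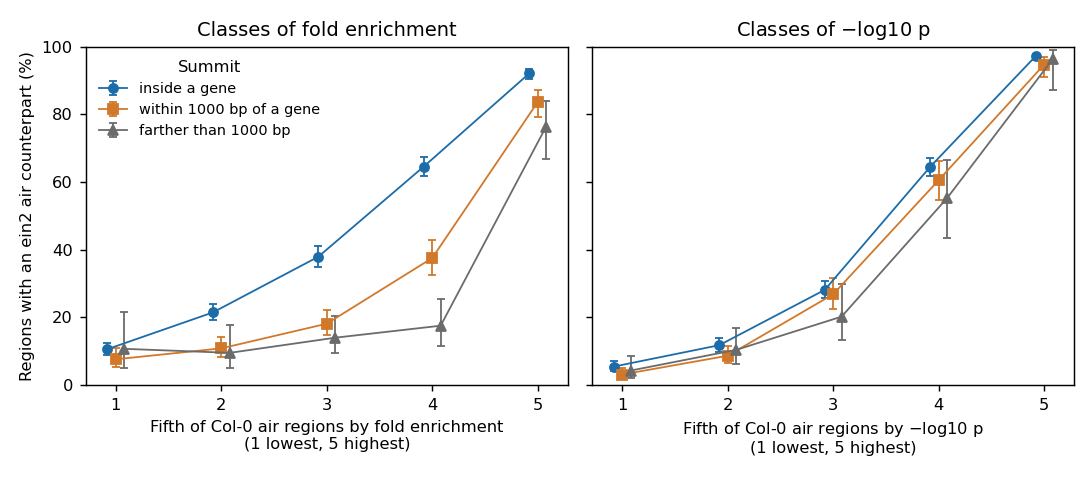
Share of Col-0 air regions with an ein2 air counterpart (%, y axis) in 5 classes of fold enrichment (left) and of −log10 p (right), for summits inside a gene, within 1000 bp of a gene and farther away; bars are Wilson 95% intervals. The 3 position classes lie apart in the left panel, at 64.6%, 37.5% and 17.5% in class 4, and close together in the right one, at 64.5%, 60.5% and 55.2%.

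Kept sites were also wider. The median Col-0 width was 371 bp for kept regions (quartiles 302 and 473) and 288 bp for missing ones (230 and 385). In 5 classes of width, 10.1%, 33.8%, 49.4%, 52.7% and 57.1% of the regions were kept, so that the narrowest class, up to 241 bp, stood apart from the others. The difference was present in every class of −log10 p, where the kept and missing medians were 325 and 262 bp, 323 and 280 bp, 353 and 301 bp, 349 and 333 bp, and 389 and 316 bp from class 1 to class 5.

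**Figure D2:**
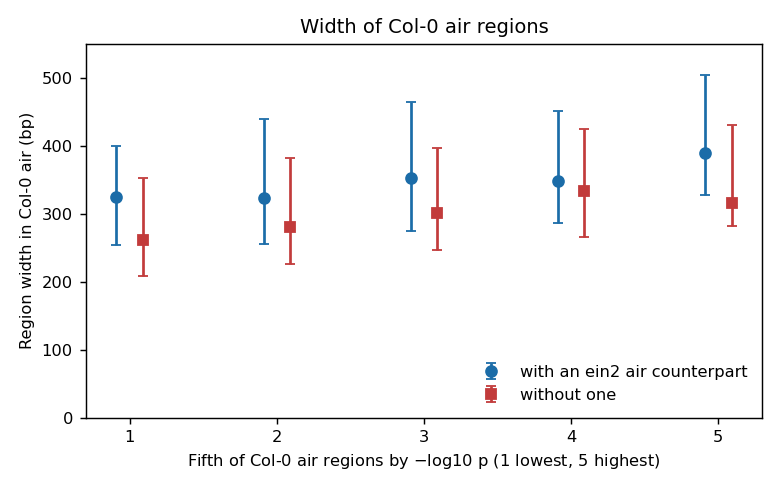
Width of Col-0 air regions (bp, y axis) in 5 classes of −log10 p, for regions with and without an ein2 air counterpart; points are medians and bars span the quartiles. In class 5 the medians were 389 and 316 bp, and the quartile ranges overlap in all 5 classes.

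Among the widest kept sites, LRX3 (AT4G13340), a leucine-rich repeat extensin gene of the cell wall, had a region of 2152 bp in Col-0 and one of 2042 bp in ein2. For the other 4 the strongest overlapping ein2 region was far narrower. The ein2 widths given here leave out any further ein2 region that overlapped the same site. Over all sites, 28 Col-0 regions overlapped 2 or more ein2 regions. At AT3G54363 the width was 2102 bp in Col-0 and 487 bp in ein2. At UNE1 (AT1G29300) it was 1913 and 529 bp, at the ethylene response factor gene ERF-1 (AT4G17500) 1675 and 312 bp, and at ADT5 (AT5G22630), an arogenate dehydratase gene of phenylalanine synthesis, 1607 and 656 bp. The widest missing regions lay in AT4G18670 (2517 bp), EIN2 (1557 bp), SLP2 (AT4G34980, 1353 bp), the β-xylosidase gene BXL1 (AT5G49360, 1346 bp) and AT5G56980 (1246 bp). All 10 summits were inside genes, and all 10 regions were also listed in Col-0 ethylene. Of all kept and all missing regions, 79.0% and 64.3% had their summit inside a gene. In Col-0 ethylene 84.7% and 40.1% of them were listed.

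Where a site was kept, it was kept at the same place. In 3129 pairs of 1 Col-0 with 1 ein2 region the summits lay a median of 14 bp apart (quartiles 7 and 24), 94.4% within 50 bp, and 28 more than 200 bp apart. The ein2 region had a median of 81.1% of the Col-0 width (68.5 and 93.1), and it was the wider one in 14.5% of pairs. Over these pairs, described without a test, Spearman's rho was 0.75 for −log10 p and 0.63 for width.

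The ethylene sets, which played no part in calling a site kept or missing, gave a second look at each site, although they start from the same list of Col-0 air regions. Of the 4666 missing regions 1394 (29.9%) overlapped a region of ein2 ethylene, and 1995 (42.8%) overlapped neither ethylene set. Sites missing in ein2 air were listed less often in ein2 ethylene than kept sites of like −log10 p. In class 4, 47.0% of the 575 missing regions (42.9 to 51) and 77.6% of the 997 kept ones (74.9 to 80.1) were listed in ein2 ethylene. In Col-0 ethylene the same regions were listed at 80.3% (76.9 to 83.4) and 86.2% (83.9 to 88.2). In class 3 the missing and kept shares were 39.6% and 70.5% in ein2 ethylene and 54.0% and 61.2% in Col-0 ethylene. The intervals of missing and kept sites lay apart in ein2 ethylene in both classes, and in Col-0 ethylene they lay apart in class 4 and overlapped in class 3. The 2 ethylene sets have lowest −log10 q values of their own, 6.57 in ein2 and 10.8 in Col-0, and these values are descriptions of 4 peak sets.

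**Figure D3:**
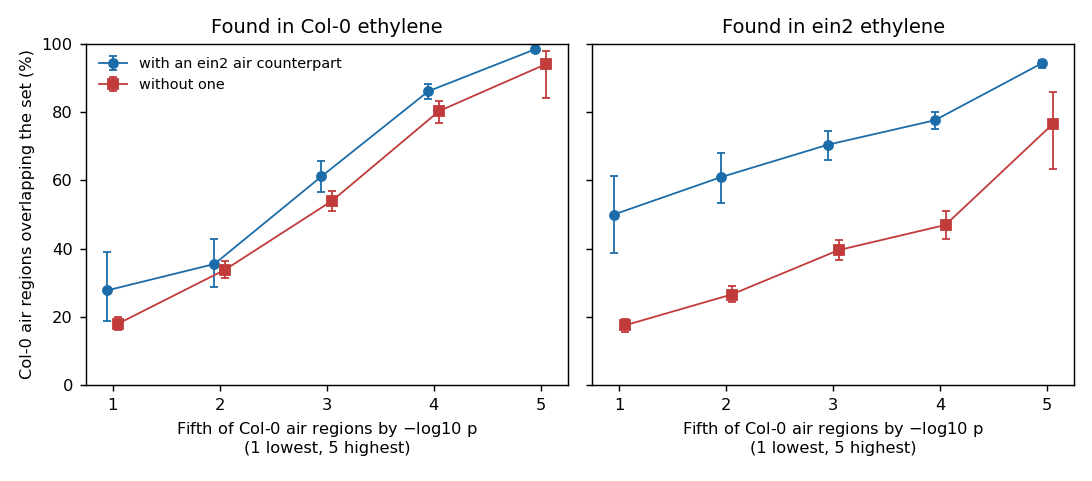
Share of Col-0 air regions that overlap a region of Col-0 ethylene (left) or ein2 ethylene (right), in %, by class of −log10 p, for regions with and without an ein2 air counterpart; bars are Wilson 95% intervals. The curves lie close in Col-0 ethylene (80.3% and 86.2% in class 4) and apart in ein2 ethylene (47.0% and 77.6%).

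The missing sites split by position in these sets. Missing sites inside genes were listed at 47.5% (45.7 to 49.3) in the Col-0 ethylene set and at 28.0% (26.4 to 29.6) in the ein2 one. For missing sites beyond 1000 bp the shares stood in the opposite order, at 21.3% (17.4 to 25.7) in the wild type after ethylene and 34.8% (30.1 to 39.8) in the mutant. Sites within 1000 bp of a gene lay between, at 28.3% (25.9 to 30.8) and 32.9% (30.4 to 35.5). The order outside genes was the same in classes 1, 2 and 3 of −log10 p and the opposite in class 4, where 75.2% of the missing sites within 1000 bp were listed in the Col-0 ethylene set and 54.3% in the ein2 one. For kept sites alone, the shares by position in the ethylene sets were not computed. Kept and missing together, ein2 ethylene listed 64.5% inside genes, 74.1% within 1000 bp and 71.6% farther away in class 4. In class 3 it listed 44.3%, 59.0% and 51.7%, and without classes 52.8%, 48.6% and 47.7%. A split particular to missing sites can therefore not be read from these values.

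At the level of genes, a gene counted as having a region when one lay within its span or 1000 bp on either side. Such a region was found for 9747 of 27444 protein-coding genes in Col-0 air (35.5%) and for 4633 in ein2 air (16.9%). Of the 9747 genes 4577 had an ein2 air region (47.0%, interval 46 to 47.9) and 5170 had none (53.0%), among which 71 had a kept region whose narrower ein2 counterpart fell outside the window. Of the 5170 genes 1742 (33.7%) had a region in ein2 ethylene. Genes with 1 Col-0 region had an ein2 region in 42.6% of cases, genes with 2 in 65.9% and genes with 3 or more in 75.7%. The median −log10 p of their strongest Col-0 region rose as well, at 32.6, 46.4 and 52.5, and its part was not tested. Among the 1731 genes with 2 or more, 883 had both kept and missing regions.

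In ethylene signalling, the genes with an ein2 region were those with the strongest Col-0 regions. Here and below each gene is given by the −log10 p of its strongest Col-0 region within its span or 1000 bp on either side. The ein2 value belongs to the ein2 region listed for the same gene, which for some genes, such as JAZ6, lies at another site. For some genes the summit of the strongest Col-0 region was placed at a neighbouring gene. Among genes with an ein2 region these include ETP2, MYC2, PYL2, BRI1, BSU1, ARR6, LNK1, HAF1, SWN, CSN5B and CSN3. Among genes without one they include JAZ3, TAA1, IAA19, IAA29, ABI1, ARR15, CKX5, FHY3, HAC1 and CSN7. Among the receptor genes, ETR2 had 150.1 in Col-0 and 81.6 in ein2, ETR1 had 80.1 and 29.2, and EIN4 had 46.6 and 18.7. ERS1 and ERS2, the other receptors, had 27.7 and 19.1 in Col-0 and no ein2 region. The kinase gene CTR1 had 22.9, the transcription factor genes EIL1 and EIN3 had 40.2 and 16.2, and the F-box gene EBF1, whose product degrades EIN3, had 19.7. None of these 4 had an ein2 air region. EIN5, which encodes an exoribonuclease, had 106.2 in Col-0 and 39.4 in ein2. ETP2, whose F-box product degrades EIN2, had 54.9 and 14.2. With EIN2 itself, the 6 genes with an ein2 region lay at 46.6 or more and the 6 without at 40.2 or less. This share of 6 of 12 (50%) stood beside 47.0% of all genes and 53.3% of all genes of like −log10 p. Over all genes the share rose with −log10 p as well, from 47.0% at 35.1 to 42.3 to 68.0% at 42.3 to 52.0. ERS1, EBF1, EIL1 and EIN3 had a region in ein2 ethylene.

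The ethylene biosynthesis genes had mostly weak Col-0 regions and no ein2 region. ACS2 and ACS5, which encode ACC synthases, had 22.3 and 17.8, the ACC oxidase gene ACO4 had 16.6, and ETO1, whose product limits ACC synthase, had 17.4. Its relative EOL2 stood apart at 49.5, a strength at which ETP2 and EIN4 had an ein2 region, and it had one in ein2 ethylene. Among genes induced by ethylene, the growth gene ARL had 45.9 in Col-0 and 15.3 in ein2, and RAP2.2, an ethylene response factor gene, had 32.6 and 16. EDF1 and EDF3, which encode transcription factors, had 46.3 and 30.7, ARGOS had 29.8, EDF4 had 22.1 and the chitinase gene CHIB had 21.8, all without an ein2 air region. EDF1, EDF3, ARGOS and CHIB had one in ein2 ethylene.

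Jasmonate genes were the hormone list with the highest kept share, 8 of 11 (72.7%, interval 43.4 to 90.3). The share was 65.2% for all genes of like −log10 p and 47.0% for all genes. The transcription factor genes MYC3, MYC4 and MYC2 had 124.3, 99.8 and 76.0 in Col-0 and 52.8, 47.5 and 26.4 in ein2. AOS, for an enzyme of jasmonate synthesis, had 78.8 and 30.9, and JAR1, which joins jasmonate to isoleucine, had 48.5 and 19. Of the JAZ repressor genes, JAZ2, JAZ6 and JAZ12 had an ein2 region, with 39.4, 15.6 and 14.5, and JAZ1, JAZ3 and JAZ9 had none. JAZ1 was missing at a Col-0 value of 51.1, above JAZ6 (41.3) and JAZ12 (31.0). JAZ1 and JAZ9 had a region in ein2 ethylene.

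Of 13 auxin genes with a Col-0 region 2 had an ein2 region (15.4%, 4.33 to 42.2, beside 27.5% for all genes of like −log10 p). These were WEI2, of the tryptophan pathway, with 52.4 in Col-0 and 14 in ein2, and the auxin export gene PIN4, with 35.8 and 26.4. The receptor genes TIR1 and AFB2 had 41.1 and 16.7, the import gene AUX1 18.3 and the synthesis gene TAA1 23.4, without an ein2 region. The repressor genes IAA29, IAA19, IAA7 and IAA17 had 46.2, 34.6, 22.3 and 21.4, and the response factor genes ARF2, ARF19 and ARF7 had 26.9, 18.4 and 16.6, again without one. TIR1 and IAA29 therefore lay between PIN4 and WEI2 in Col-0 strength. Of these 11 genes, TAA1, AUX1, IAA17, IAA29 and ARF2 had a region in ein2 ethylene. The list was a selection. Of all 13 genes with an IAA symbol and a Col-0 region 7 had an ein2 region, beside 35.1% for all genes of like −log10 p. Of all 10 with an ARF symbol it was 5, beside 34.3%, among them ARF6 (122.2 and 53.9) and ARF8 (78.9 and 25.3).

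None of the 6 gibberellin genes with a Col-0 region had an ein2 region (upper bound 39.0%, beside 23.3% for all genes of like −log10 p). The DELLA repressor genes RGL1, RGL2, RGL3 and RGA had 36.5, 29.2, 28.7 and 18.5, and the receptor genes GID1B and GID1A had 33.4 and 24.6. RGL2 and GID1B had a region in ein2 ethylene. Of the abscisic acid genes, the receptor genes PYL2, PYL8 and PYR1 had 117.0, 59.5 and 38.8 in Col-0 and 64.2, 34.7 and 24.5 in ein2, and the synthesis gene NCED3 had 68.8 and 28.4. The receptor gene PYL4, the phosphatase gene ABI1, the kinase genes SNRK2.2 and OST1 and the transcription factor gene ABI5 had 28.2 or less and no ein2 region.

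Of 9 brassinosteroid genes with a Col-0 region 6 had an ein2 region (66.7%, 35.4 to 87.9). The share was 59.7% for all genes of like −log10 p. The receptor gene BRI1 had 122.6 in Col-0 and 55.3 in ein2, and the phosphatase gene BSU1 94.2 and 38.6. The co-receptor gene BAK1 had 33.5 and 20.8, the kinase gene BIN2 26.6 and 21.6, and BAS1 67.8 and 34.5. CPD had an ein2 region with 18.9, while its strongest Col-0 region, with 51.6, was missing. The transcription factor gene BES1 was missing at 38.1 and the synthesis gene DET2 at 45.9, both above BAK1 and BIN2 in Col-0. DWF4 was missing at 22.1. Among cytokinin genes the response regulators ARR4, ARR6 and ARR10 had 88.5, 67.7 and 38.2 in Col-0 and 26.8, 39.8 and 19.9 in ein2. The receptor genes AHK3 and AHK4, the regulators ARR1, ARR12 and ARR15 and the cytokinin oxidase gene CKX5 were missing, with at most 35.8.

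**Figure D4:**
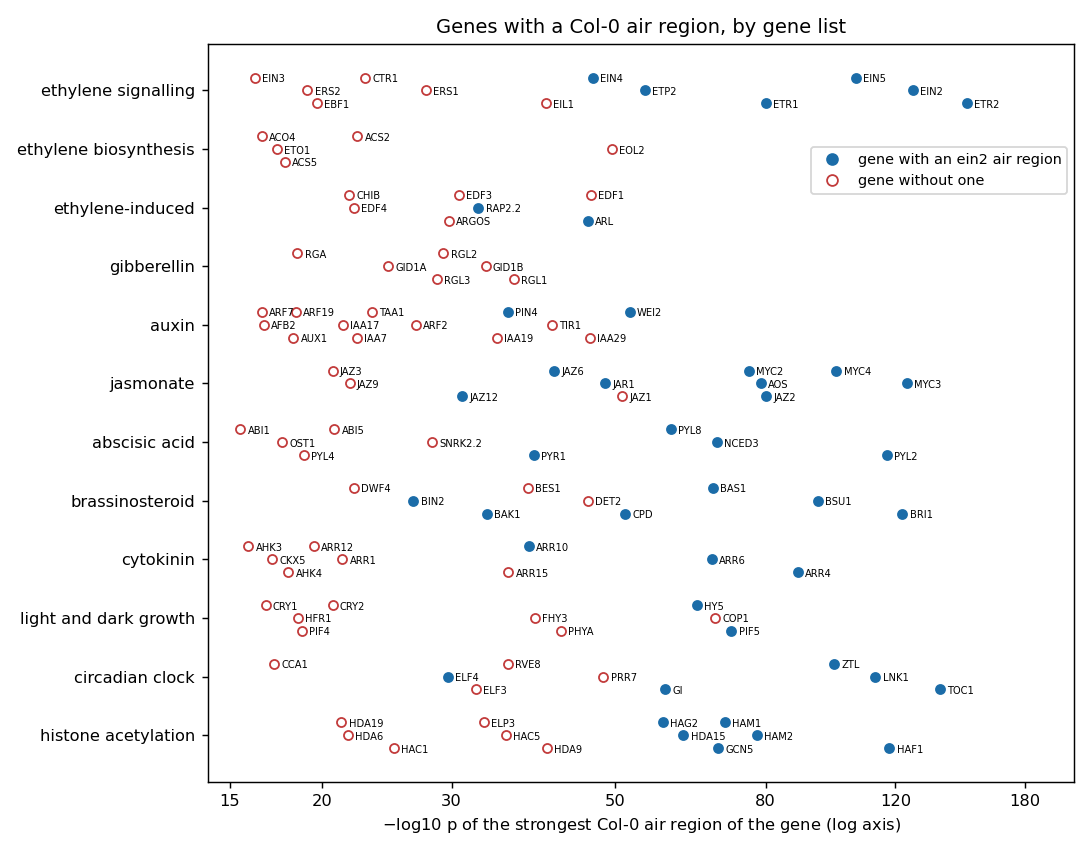
−log10 p of the strongest Col-0 air region (log axis) of each gene with a Col-0 air region in 12 gene lists; filled points have an ein2 air region and open points have none. Within most lists the filled points lie to the right, with COP1 (68.4), JAZ1 (51.1) and EOL2 (49.5) among the open points that lie among filled ones.

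Of 9 genes of light signalling and growth in darkness 2 had an ein2 region (22.2%, 6.32 to 54.7, beside 44.0% for all genes of like −log10 p). These were HY5, a transcription factor gene of light responses, with 64.6 and 34.8, and PIF5, a factor gene of growth in darkness, with 71.9 and 21.1. COP1 (AT2G32950), the ubiquitin ligase gene that holds back light responses in darkness, had 68.4 in Col-0, a region at chr2:13977696-13978110 with its summit just outside the gene, and no region in ein2 air or in ein2 ethylene. It was listed in Col-0 ethylene. The photoreceptor genes PHYA, CRY2 and CRY1 had 42.2, 20.7 and 16.8, and the factor genes FHY3, PIF4 and HFR1 38.9, 18.8 and 18.6, without an ein2 air region. Among clock genes TOC1, LNK1, ZTL, GI and ELF4 had 138.1, 112.8, 99.2, 58.4 and 29.7 in Col-0 and 80.2, 55.2, 47.0, 29.8 and 19.3 in ein2. PRR7, RVE8, ELF3 and CCA1 had 48.2, 35.8, 32.4 and 17.2 and no ein2 region.

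Of 8 histone acetyltransferase genes with a Col-0 region 5 had an ein2 region. With the deacetylase genes it was 6 of 12 (50%), beside 60.6% for all genes of like −log10 p. HAF1, HAM2, HAM1, GCN5 and HAG2 had 117.8, 77.9, 70.5, 69.1 and 58.1 in Col-0 and 55.4, 30.2, 29.3, 29.5 and 17.4 in ein2. HAC5, ELP3 and HAC1 had 35.5, 33.1 and 25.1 and no ein2 region. Of the deacetylase genes, HDA15 had 61.9 and 26.4, and HDA9, HDA6 and HDA19 had 40.4, 21.7 and 21.3 in Col-0 and no ein2 air region. Of 8 other chromatin regulator genes with a Col-0 region 4 had an ein2 region (50%), beside 50.1% for all genes of like −log10 p. The Polycomb genes CLF and SWN, which encode histone methyltransferases, had 139.6 and 116.2 in Col-0 and 75.4 and 27.1 in ein2. ELF6 and MSI1 had 182.7 and 45.0 in Col-0 and 66.5 and 21.8 in ein2. FLD, DDM1, SYD and EMF2 had 22.2, 21.5, 20.3 and 19.8 and no ein2 air region. Of 6 genes for the COP9 signalosome, which acts with COP1, the subunit genes CSN6B, CSN5B and CSN3 had 71.0, 61.5 and 31.7 in Col-0 and 14.1, 16.7 and 14.3 in ein2. COP8 (AT5G42970) had 81.2 in Col-0, more than these 3, with no ein2 air region and one in ein2 ethylene. CSN7 and CSN2 had 35.9 and 21.9 and none in either ein2 set.

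Among genes grouped by symbol, 15 of 29 WRKY transcription factor genes with a Col-0 region had an ein2 region (51.7%, 34.4 to 68.6). So had 14 of 26 genes of the MAP kinase cascade (53.8%, 35.5 to 71.2) and 23 of 51 cytochrome P450 genes (45.1%, 32.3 to 58.6). For MYB and NAC genes it was 11 of 27 and 6 of 18. In the same order, the shares of all genes of like −log10 p were 40.4%, 44.3%, 46.5%, 44.0% and 30.8%. WRKY48 led its family with 110.0 and 60.3, and WRKY32 had 47.0 and no ein2 region. WRKY8 (79.2) and MYB102 (163.4) count among the genes without an ein2 region, but their Col-0 regions were kept, with an ein2 counterpart that fell outside the gene window. Lower shares were found for 6 of 23 calcium-dependent or CBL-interacting kinase genes (26.1%, 12.5 to 46.5) and 4 of 19 Rab GTPase genes of vesicle transport (21.1%, 8.51 to 43.3). All genes of like −log10 p had 35.2% and 31.1%. Among the Rab genes RABC2A had 190.1 in Col-0 and 76.7 in ein2, whereas RABA1g and RABE1c were missing at 49.4 and 46.8. Of the expansin genes, whose products loosen cell walls, EXPA2 had an ein2 region and 5 did not, among them EXPA9 at 61.8. Their share was 16.7%, beside 22.9% for all genes of like −log10 p.

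Of 44 lists and families with 5 or more genes in Col-0 air, the interval of 39 held the share of all genes, 47.0%. The other 5 lay below it, namely ethylene biosynthesis, gibberellin, auxin, the calcium-related kinases and the Rab GTPases, and none lay above. Against all genes in the same classes of −log10 p as the members, a comparison added after the data had been seen, the interval of 43 of the 44 held the share. The same-strength shares of the 5 low lists were 19%, 23.3%, 27.5%, 35.2% and 31.1%, all below 47.0%. The remaining interval was that of the glutathione transferase family, with 2 of 7 (28.6%, 8.22 to 64.1) beside 7.10%. There GSTF9 and GSTF10 share their strongest Col-0 region, as do GSTT2 and GSTT3, while the intervals count genes as independent. Lists of this size cannot show small differences.

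**Figure D5:**
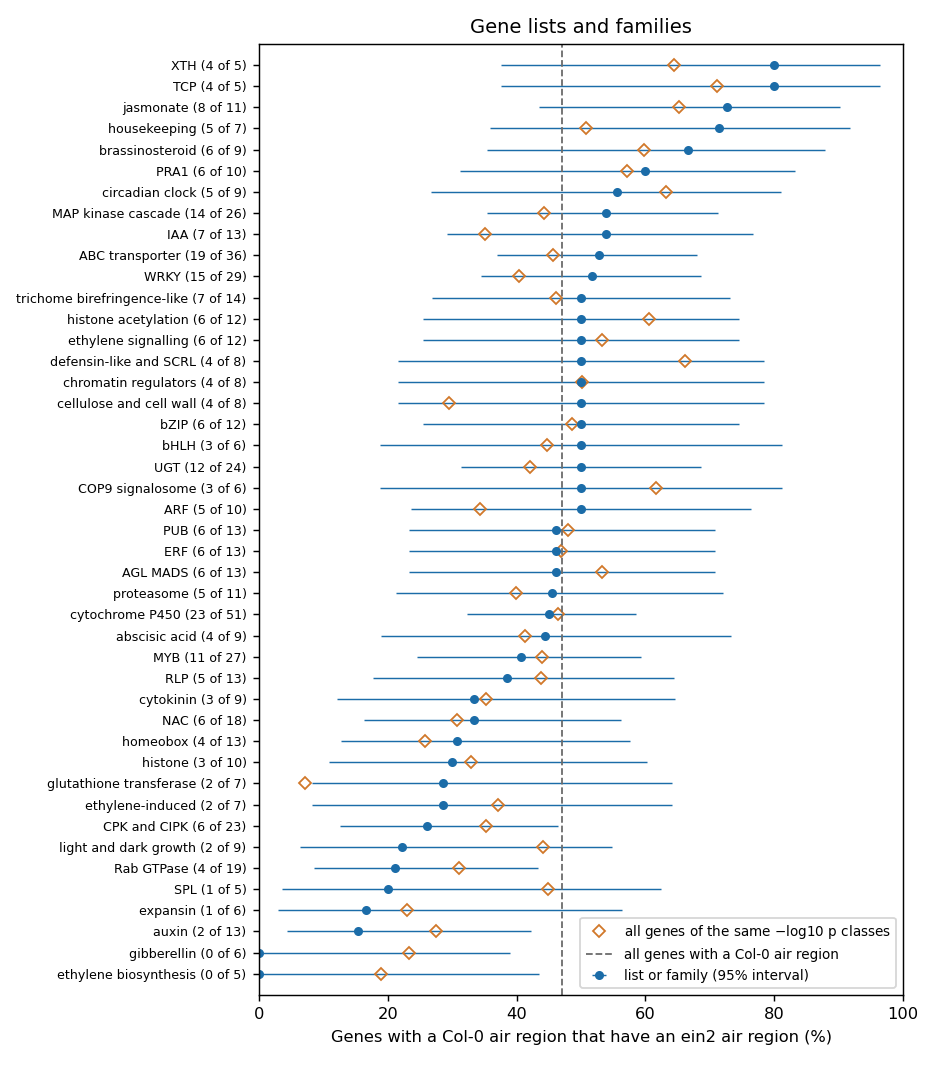
Share of genes with a Col-0 air region that have an ein2 air region (%, x axis) in 44 lists and families; points with bars are the list and its Wilson 95% interval, diamonds the share of all genes in the same −log10 p classes, and the dashed line that of all genes (47.0%). The list points follow the diamonds, from ethylene biosynthesis (0 of 5 beside 19%) to jasmonate (8 of 11 beside 65.2%).

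Strong sites missing in ein2 air were few. In class 5 of −log10 p 51 regions were missing, of which 48 were also found after ethylene in Col-0 and 39 after ethylene in ein2. The strongest lay in GL22 (AT1G02335), a germin-like gene, with a −log10 p of 93.8, in SDG20 (AT3G03750), a SET domain gene, with 82.9, in COP8 with 81.2 and near the MADS-box gene AGL19 (AT4G22950) with 80.8. They were followed by AT1G31175, AT2G01400, AT1G28680, AT1G60010, AT4G36230 and COX15, with 79.4 down to 75.7. Of these 10, 9 were listed in ein2 ethylene, with SDG20 as the exception. Of all Col-0 regions in class 5 of −log10 p, 93.8% were listed there. By fold enrichment, 14 of the 15 highest missing regions were listed in ein2 ethylene and 12 in Col-0 ethylene. Of all Col-0 regions in the highest of 5 fold classes, 95.2% were listed in ein2 ethylene. The 15 regions had a width of 236 to 620 bp, and 9 of their summits lay outside genes. CDF3 and LCR60 were near such summits, and KUF1 and HB34 were the nearest genes at over 1000 bp. The region nearest to HB34 (AT3G28920), a homeobox gene over 1000 bp away, with a fold of 8.27, was in none of the other 3 sets.

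Missing from both ein2 sets and strong in Col-0 were 12 regions of class 5, all of them listed in Col-0 ethylene. That set listed 98.5% of all kept and 94.1% of all missing regions of class 5, so this is near the share of the class. Besides SDG20, COP1 and EXPA9 they lay in NCED3 (66.2), the chloroplast lipid transfer gene PDE320 (63.8), the splicing gene PRP40B (62.1) and TRFL5 (59.2), near the transporter gene ABCB26 (61.7), and at AT3G27540 (69.2), AT3G55430 (65.9) and AT2G29660 (63.5), and nearest to AT3G29645 (61.4). Apart from members of the lists and SDG20, these were named after their values had been seen. NCED3 had 3 Col-0 regions, of which 1 was kept. That ein2 had no region at these sites in air or in ethylene follows from how they were selected.

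The 53 ein2 regions without a Col-0 counterpart were weak, with a median −log10 p of 15.2 beside 23.2 for the other ein2 regions. Of all 53, 50.9% were listed in ein2 ethylene and 13.2% in Col-0 ethylene. The 15 of highest fold had −log10 p values of 15.2 to 25, 9 were listed in ein2 ethylene and 2 in Col-0 ethylene. They lay in SUE4, ICK1, SIP1, the vernalization gene VRN1 and the cytokinin response regulator gene ARR4, and at 8 loci with no symbol. The others had the cytokinin oxidase gene CKX3 and PFA-DSP1 as nearest genes, over 1000 bp away. ARR4 had another region in both lines, with 88.5 in Col-0 and 26.8 in ein2. At the top, the 15 shared regions of highest fold had 13.5 to 19.9 in Col-0, and 10 of their summits lay outside genes. At the GTPase gene RABC2A (AT5G03530) the fold was 16.8 in Col-0 and 7.60 in ein2, at the DNA damage checkpoint gene RAD9 (AT3G05480) 16.7 and 8.24, at the prohibitin gene PHB2 (AT1G03860) 14.3 and 10.4, and at VPS15 (AT4G29380), of vesicle transport, 13.5 and 7.68. All 15 were listed in both ethylene sets, as were 1409 of the 1518 kept regions in class 5 of −log10 p.

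With equal numbers, the 3252 Col-0 regions of highest −log10 p against the 3252 of ein2, 78.7% of the Col-0 regions were kept and 694 were missing. Of the 674 ein2 regions outside the top of Col-0, 621 (92.1%, 89.9 to 93.9) overlapped a weaker Col-0 region. The differences in position and width were in the same direction and smaller: 80.8% of kept and 76.5% of missing summits lay inside genes, and the median widths were 375 and 330 bp. The rank of some shared sites differed widely between the lines. FLN1 (AT3G54090), a fructokinase-like gene of plastids, was 841st in Col-0 and 3184th in ein2, with −log10 p of 79.6 and 13.6, and the receptor kinase gene ERL2 (AT5G07180) of stomatal patterning was 516th and 2608th, with 93.9 and 16.4. AUF1, CIP8, SINAT2, NEF1 and EIP9 were also among the 10 with the largest drop in rank. In the other direction AT3G17450 was 2971st in Col-0 and 431st in ein2, with 38.3 and 46, and the cell cycle inhibitor gene KRP6 (AT3G19150) was 3228th and 837th, with 35.8 and 34.8. MAC3A, LOG2, TIF3H1, ARI1 and the histidine kinase gene HK5 were in the same group.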

How the data were processed

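ENAP1 ChIP-seq was done on whole seedlings. The submitters' processing notes name BWA for alignment, MACS2 2.1.0.20150603 for peak calling and the build TAIR10. The notes used here say nothing of filters, of the calling threshold or of how the replicates were joined. The deposited peak files hold start, end and summit offset in bp, a fold enrichment (a ratio) computed by the authors, and −log10 p and −log10 q values, also from the authors' peak caller. The 2 peak files that no sample label names, of 6 in all, were left out with their columns. The series' design text speaks of 3 lines, of which the labels give 2, and what those files hold was not analysed here. The deposited files give no counts, so depth and its precision are unknown. Both air ChIP sets have plain library numbers and their inputs have numbers with a C, which no label explains. The labels do not say whether replicates came from separate plants.

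Regions were compared in Python 3.11.15 with pandas 2.3.3, after a check on simulated regions. No entries touched, so none were merged. Fold and −log10 p depend on each set's depth and background and are set side by side only as values of their own sets. Starts are 1-based. Genes and symbols came from a RefSeq table of TAIR10.1, another name than that of the peak files, so its coordinates are not printed. As a check of the builds, at least 71.3% of summits had a gene edge within 300 bp, and at most 28.3% after any of 8 shifts. AT3G11100 has no symbol in the table and was called ENAP1 from background knowledge. The planned motif search was not run, and gene starts and ends were not separated, because sequence and strand were not used here. A region within reach of 2 genes counts for both.

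The members and the 17 hand-written lists and 30 symbol families were chosen with earlier results of these data known. The text names genes at the 15 highest-fold regions that were shared, missing or found in ein2 alone, the 5 widest kept and missing, the 10 missing of highest −log10 p, the 10 shared of largest rank difference each way, list members, EIN2 and ENAP1; where many qualified, those with a symbol were preferred. Intervals are Wilson 95%. Alternatives changed the overlap, the −log10 q and fold minimum, the gene window, the ranking and the numbers of regions; comparisons within classes were added after the data had been seen.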

Additional observations from a re-analysis of the deposited data

How the results depend on the processing

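Across 36 alternatives for 6 results, 17 values stayed within the counting error of the value reported, 19 moved and none changed sign. Requiring 50% overlap or a summit inside the other region, merging touching entries or using all annotated genes moved none. With the −log10 q minimum of Col-0 applied to ein2 as well, 33.9% of the Col-0 regions and 99.2% of the ein2 regions had a counterpart, and 40.0% of the Col-0 genes an ein2 region. With a fold of at least 3 in both sets these were 34%, 97.4% and 39.1%, and the kept minus missing differences were 9.38 points inside genes and 72.5 bp in width, beside 14.7 points and 83 bp. The gene share was 45.0% for the gene span alone, 44.4% with each region given to 1 gene and 79.8% at equal numbers. At equal numbers the differences were 4.33 points and 45 bp. Averaged within classes of fold they were 18.3 points and 64.6 bp, and within classes of −log10 p 7.07 points and 49.4 bp. The equal-number share was 71.5% with ranking by fold and 76% with the top 1000. The cause of these shifts was not tested, apart from fewer regions entering by construction. No paired analysis was possible because each condition has 1 peak set for both replicates, and for the same reason no replicate could be left out. Depth is unknown, and weak regions are those most affected by each set's minimum.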

Other observations

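Outside protein-coding genes, some summits lay in other annotated genes, and their kept share in ein2 air differed by kind. Of 149 Col-0 air regions in long non-coding RNA genes 51 were kept (34.2%, interval 27.1 to 42.2), with a median −log10 p of 26.1. Of 31 in genes annotated as non-coding RNA 22 were kept (71.0%, 53.4 to 83.9), with a median of 54.3, and one of these is AT5G03285 beside EIN2. Of 20 in transcribed pseudogenes 15 were kept (75%, 53.1 to 88.8), with a median of 51.6, and of 22 in pseudogenes without known transcripts 3 (13.6%, 4.75 to 33.3), with a median of 22.6. Of 6 in transfer RNA genes none was kept. The 2077 regions in no annotated gene were kept at 27.2% (25.3 to 29.2), with a median of 24.1. The strongest of these sites was in the transcribed pseudogene AT4G21437, with a −log10 p of 163.4, a width of 1311 bp and an ein2 counterpart. The part of signal strength in these shares was not tested.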
